A study of Mus musculus with 2 samples.

Results

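Ctsk, Acp5, Dcstamp, Ocstamp and Atp6v0d2 are 5 genes best known from osteoclasts, the bone-resorbing relatives of macrophages. They are 5 of the 32285 gene rows in each count matrix and were chosen because they had stood out in the macrophages of the PTIR1 tumours in these data, so their levels are given as a description and not as a test. The data came from CT26 tumours, which grow from a mouse colon carcinoma line, in BALB/c mice. Each group was 1 single-cell RNA library made with the 10x 3′ v3.1 chemistry: tumours of the mock genotype, and tumours of the PTIR1-expressing genotype. The labels call the source of both libraries tumour-infiltrating lymphocytes, and say neither how many animals or tumours gave cells to a library nor what cells were sorted. No gene row carried the name PTIR1, so the genotype could not be checked in the counts. With 1 library a group no difference between the groups has a replicate check. No p-value is given, and the 95% intervals printed with the values account for counting error alone.

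Osteoclasts form when myeloid precursors receive CSF1 through its receptor Csf1r and RANK ligand through its receptor RANK, the product of Tnfrsf11a. These signals induce the transcription factor NFATc1, after which the precursors fuse and begin to secrete acid and proteases. Dcstamp and Ocstamp encode membrane proteins needed for the fusion, Atp6v0d2 a subunit of the vacuolar proton pump that also takes part in fusion, Acp5 the tartrate-resistant acid phosphatase used to stain osteoclasts, and Ctsk cathepsin K, the protease that digests bone collagen. Most of the 5 genes are also found at lower levels in other macrophages, dendritic cells or lymphocytes.

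In mm10, the build named in the submitters' processing notes, the GENCODE annotation places the 5 protein-coding genes on 5 chromosomes. Ctsk lies at chr3:95499256-95509362 on the plus strand, Acp5 at chr9:22126727-22135711 on the minus strand, Dcstamp at chr15:39745930-39760938 on the plus strand, Ocstamp at chr2:165393760-165400405 on the minus strand, and Atp6v0d2 at chr4:19876841-19922605 on the minus strand. Of the 5, Ctsk and Acp5 had promoter entries in the RefSeq table used here (GRCm38.p6), Ctsk with 1 and Acp5 with 3. The 250 bases upstream of the start are shown for these genes because they carried most of the UMIs described below. The Ctsk window is chr3:95498960-95499209 on the plus strand, and the Acp5 window is that of the last of its listed starts, chr9:22130599-22130848 on the minus strand. Capitals mark the motifs found by a search of both strands for CACGTG and CATGTG (E-box forms that MITF can bind), TGANTCA (the AP-1 site) and GAGGAA (the core that PU.1 can bind), which do not overlap one another here.
Ctsk: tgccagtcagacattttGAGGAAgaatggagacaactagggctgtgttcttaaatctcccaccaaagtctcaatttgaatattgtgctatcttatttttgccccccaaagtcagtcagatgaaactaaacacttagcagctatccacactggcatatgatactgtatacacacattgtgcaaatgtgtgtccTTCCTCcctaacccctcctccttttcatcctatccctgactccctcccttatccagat
Acp5: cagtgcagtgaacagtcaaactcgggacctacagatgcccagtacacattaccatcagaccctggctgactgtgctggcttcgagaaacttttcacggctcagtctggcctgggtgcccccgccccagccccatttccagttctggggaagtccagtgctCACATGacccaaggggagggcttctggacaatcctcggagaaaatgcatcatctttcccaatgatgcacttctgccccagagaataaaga
The Ctsk window held GAGGAA at 2 places, 233 and 58 bases upstream, the second on the reverse strand and so printed as TTCCTC. The Acp5 window held CATGTG 90 bases upstream on the reverse strand, printed as CACATG. The windows of the earlier listed Acp5 starts, not shown, held none of the motifs. Of 32851 promoter windows of the same length, 23.3% held GAGGAA, 12.3% CATGTG, 6.75% TGANTCA and 6.02% CACGTG, so these matches are common and describe the letters only.

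Depth was 95166611 UMIs (unique molecule counts) over 10833 cells in mock, the median cell having 2357, and 98540561 UMIs over 9006 cells in PTIR1, the median cell having 4933. After removing cells under 200 genes, cells over 10% mitochondrial UMIs and the cells with the highest doublet scores, 8632 mock and 7109 PTIR1 cells were kept. Cells were placed in classes, called gates here, by marker genes: 1497 mock and 950 PTIR1 cells fell in the macrophage gate and 1938 and 1250 in the monocyte gate. The B, NK and T cell gates held 383, 384 and 264 mock cells and 704, 425 and 108 PTIR1 cells, so the libraries were not lymphocytes alone. The libraries shared 30 cell barcodes, none of them from a cell that carried high levels of the 5 genes. The fibroblast gate held 54 mock and 728 PTIR1 cells.

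In the macrophage gate all 5 genes had higher summed levels in the PTIR1 library than in the mock library. Levels are UMIs of the gene per 1000000 UMIs of all cells in the gate (CPM). Of 10806 genes that reached 50 UMIs in the libraries together, 2.13% were 2-fold or more higher in PTIR1 macrophages and 0.629% were 2-fold or more lower. All 5 members were past 2-fold, and as they were chosen on this contrast nothing is read from that count. The median depth of the macrophages was 10724 UMIs a cell in mock and 10735 in PTIR1.

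Ctsk, the collagen-digesting protease, gave 339 UMIs in mock macrophages and 3134 in PTIR1 macrophages. That is 18.5 CPM (16.6 to 20.6) against 261 CPM (252 to 270), a ratio of 14.1 (12.6 to 15.8). The share of macrophages with any Ctsk UMI moved little beside this, 10.4% in mock and 11.3% in PTIR1. Acp5, the phosphatase, gave 345 and 2307 UMIs, or 18.9 CPM (16.9 to 21.0) and 192 CPM (184 to 200), a ratio of 10.2 (9.09 to 11.4). Its share of positive macrophages was 13.5% in mock and 16.2% in PTIR1. Both genes were therefore far higher in sum while about the same fraction of cells carried them.

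The other 3 genes were rarer. Atp6v0d2, the proton pump subunit, gave 84 UMIs in mock and 283 in PTIR1 macrophages, which is 4.59 and 23.6 CPM and a ratio of 5.13 (4.01 to 6.63). It was seen in 2.61% and 4.11% of the cells. Dcstamp, the first of the fusion genes, gave 28 and 94 UMIs, 1.53 and 7.83 CPM, a ratio of 5.11 (3.32 to 8.10), and its positive share was 1.34% against 3.58%. Ocstamp, the second, gave 42 and 79 UMIs, 2.30 and 6.58 CPM, with the smallest ratio of the 5, 2.86 (1.95 to 4.27).

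**Figure D1:**
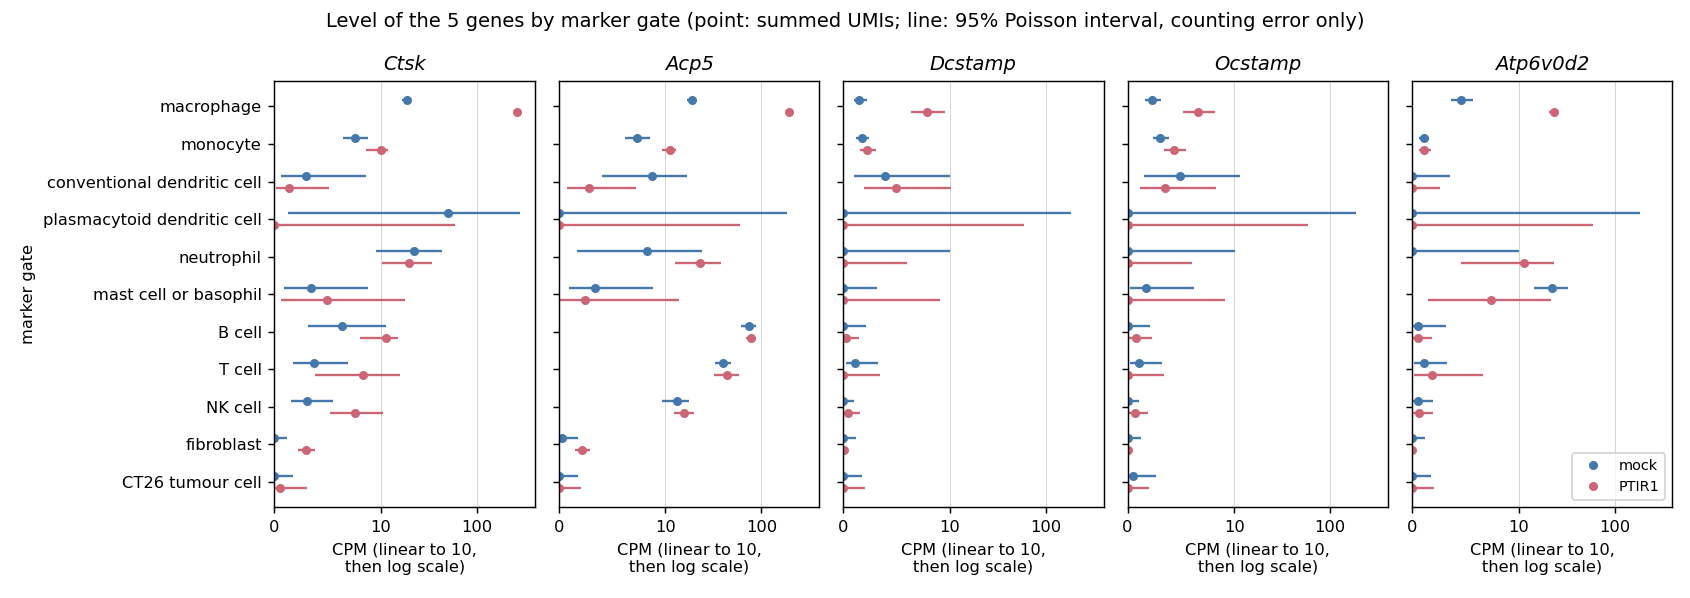
Levels of the 5 genes (x axis, CPM, linear to 10 and logarithmic above) in each gate (y axis) of the mock and PTIR1 libraries, points being summed UMIs and lines exact Poisson 95% intervals. In the macrophage gate Ctsk is at 18.5 CPM in mock and 261 CPM in PTIR1, while Acp5 in B cells is at 73.6 and 77.4 CPM.

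The extra UMIs sat in few cells. A cell was called rich where the 5 genes together reached 50 UMIs per 10000 UMIs of that cell, a limit chosen after the values were seen. By this rule 9 of the 950 PTIR1 macrophages (0.947%, exact binomial interval 0.434 to 1.79%) and 0 of the 1497 mock macrophages (upper limit 0.246%) were rich. Those 9 cells held 2956 of the 3134 Ctsk UMIs of the PTIR1 gate (94.3%) and 2070 of the 2307 Acp5 UMIs (89.7%). They held 77.4% of the Atp6v0d2 UMIs and 55.7% of the Ocstamp UMIs, but 27.7% of the Dcstamp UMIs. The cell with the most of each gene alone held 23.4% of the Ctsk and 32.9% of the Acp5 UMIs of the gate.

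Without the 9 rich cells, 941 PTIR1 macrophages remained and the higher levels of Ctsk and Acp5 were no longer there. The rule for rich cells used these genes and took no cell from the mock gate. Leaving the rich cells out thus lowers the PTIR1 values alone by design, most of all for Ctsk and Acp5. Ctsk then stood at 15.1 CPM, a ratio to mock of 0.814 (0.675 to 0.979), so that its direction turned. Acp5 stood at 20.1 CPM, a ratio of 1.07 (0.899 to 1.26). Atp6v0d2 was at 5.43 CPM (ratio 1.18, 0.840 to 1.66) and Ocstamp at 2.97 CPM (ratio 1.29, 0.801 to 2.07). Dcstamp, with 26 UMIs in the 9 cells against 2956 of Ctsk, weighed little in the rule. It was at 5.77 CPM with a ratio of 3.77 (2.39 to 6.08). Over all genes 2.03% of 10781 were then 2-fold or more higher and 0.668% lower, and Dcstamp was the 1 member of 5 still past 2-fold.

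**Figure D2:**
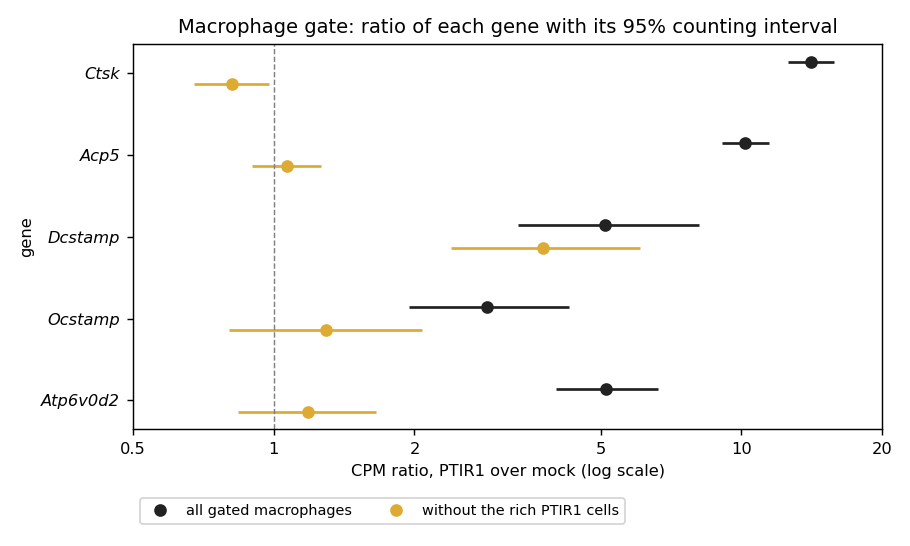
PTIR1 over mock ratio of CPM for each of the 5 genes in the macrophage gate (log axis), with all cells and without the 9 rich cells, bars being exact conditional 95% intervals. Ctsk moves from 14.1 to 0.814 and Acp5 from 10.2 to 1.07, while Dcstamp moves from 5.11 to 3.77.

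Cells that met the same rule were present in the mock library, but outside its macrophage gate. Over all deposited cells, with no filter, 5 of 10833 mock cells (0.0462%, 0.0150 to 0.108%) and 15 of 9006 PTIR1 cells (0.167%, 0.0932 to 0.275%) were rich, a ratio of shares of 3.61 (1.25 to 12.7). Of the 5 mock cells, 4 had over 10% mitochondrial UMIs and were removed by that limit, and 1 was kept but met no gate. Of the 15 PTIR1 cells, 5 were removed by the limit, 9 were in the macrophage gate and 1 was kept without a gate. Among the removed cells alone the shares were 4 of 1505 in mock and 5 of 1439 in PTIR1, a ratio of 1.31 (0.281 to 6.59), and among kept cells the counts were 1 and 10. No mock rich cell thus entered the macrophage gate, and 9 of the 15 PTIR1 rich cells did. Over all deposited cells the ratio of Ctsk was 3.37 and that of Acp5 2.65, and without the 20 rich cells of both libraries they were 0.941 (0.860 to 1.03) and 1.02 (0.945 to 1.10). The rule used these genes, so this fall too follows in part from it.

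The rich cells of the PTIR1 library carried the 5 genes at 76.7 to 426 UMIs per 10000, with a median of 197. Their total depth ran from 2555 to 38428 UMIs with a median of 20538, so they were deeper than most macrophages, whose median was 10683 without them. The richest kept cell held 729 Ctsk, 760 Acp5, 11 Dcstamp, 9 Ocstamp and 50 Atp6v0d2 UMIs among 38428 in all. Over the 15 cells Ctsk ran from 9 to 734 UMIs (median 220) and Acp5 from 17 to 760 (median 130), and no cell lacked either. Atp6v0d2 was at 0 to 53 UMIs (median 15) and seen in 14 of 15 cells. Ocstamp, at 0 to 12 UMIs, was seen in 12 cells, and Dcstamp, at 0 to 18 UMIs, in 10. Ctsk and Acp5 were above the fusion genes in UMIs in every one of these cells. The rule picked cells by the sum of the 5 genes, of which Ctsk and Acp5 made up most. Their presence in each cell and this order thus follow in part from the rule.

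In the 5 mock cells Ctsk and Acp5 were again above the other 3 genes in each cell, which the rule favours here too, though the order within them varied. Ctsk was at 186, 100, 50, 51 and 98 UMIs in them and Acp5 at 55, 71, 9, 15 and 150. Atp6v0d2 was at 4, 3, 2, 1 and 55 UMIs, Ocstamp at 2, 0, 2, 2 and 4, and Dcstamp at 1, 0, 0, 2 and 2. The first 4 of these cells held 4819 to 8129 UMIs and 17.3 to 65.9% mitochondrial UMIs, and the fifth held 54069 UMIs and 3.01%. Mitochondrial shares in the 15 PTIR1 cells were 1.03 to 29.3% with a median of 7.36%, against medians of 2.09 and 2.34% in the other macrophages of mock and PTIR1. The part of this RNA quality measure in the levels was not tested. Doublet scores in the rich cells that were scored were 0.0332 to 0.0572 in mock and 0.0236 to 0.0380 in PTIR1, below the medians of other macrophages, 0.0708 and 0.0543.

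**Figure D3:**
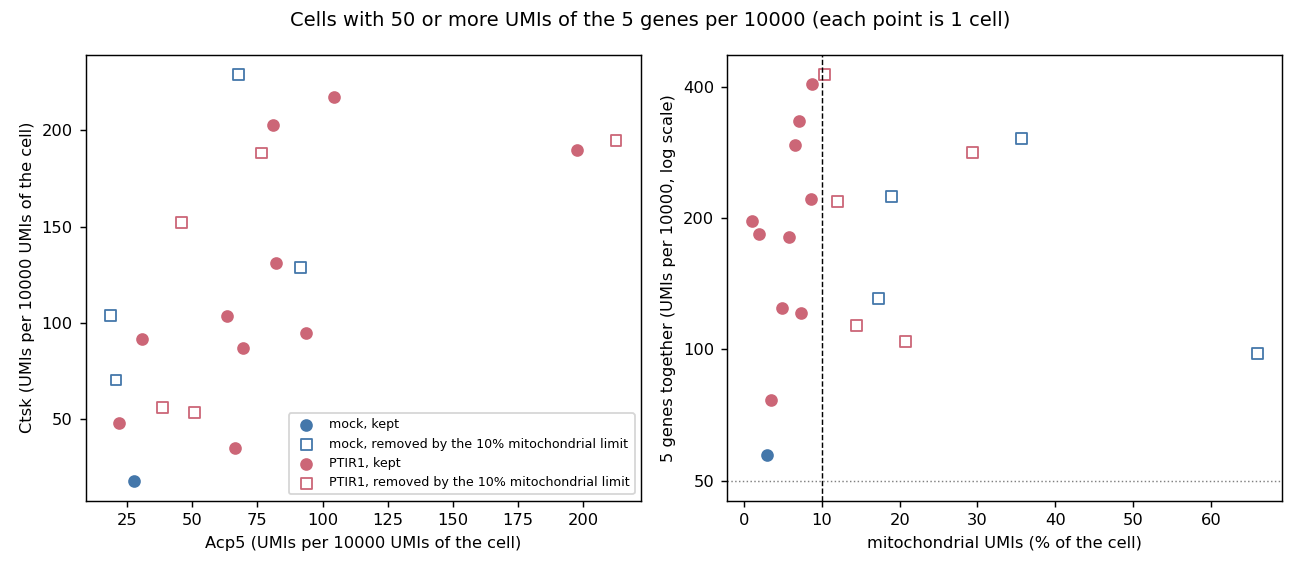
Each rich cell is 1 point, with Ctsk against Acp5 (UMIs per 10000 UMIs of the cell) on the left, and the 5 genes together (log axis) against the mitochondrial percentage on the right, where the dashed line is the 10% limit and the dotted line the limit for rich cells. Of the mock cells 4 of 5 lie beyond the dashed line, and of the PTIR1 cells 5 of 15.

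The limit fell in a wide gap in PTIR1 and a narrower one in mock. The lowest rich cell of the PTIR1 library was at 76.7 UMIs per 10000, and the next cell below the limit with at least 1000 UMIs and 2 members was at 22.8, a cell of 62179 UMIs that had been removed for its doublet score of 0.151. In mock the lowest rich cell was at 57.1 and the next cell was at 41.4, with 134 Ctsk UMIs and 1 Acp5 UMI. Between 20 and 50 UMIs per 10000 lay 15 mock and 11 PTIR1 cells in all, none in the macrophage gate, with median depths of 835 and 706 UMIs. Not all were shallow: a kept mock cell without a gate, at 23.7 per 10000, held 36276 UMIs. Of these, 55 were Acp5, 26 Atp6v0d2 and 5 Ctsk. It also held 23 Nfatc1 UMIs and 10 of Slc9b2, a gene described below that was seen in all 5 mock rich cells. With the limit at 25, 100 or 200, in cells with at least 1000 UMIs and 2 of the genes, the counts over all deposited cells were 6 and 15, 3 and 14, and 2 and 7 in mock and PTIR1. In the macrophage gate they were 0 and 9, 0 and 8, and 0 and 4.

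The name tumour macrophages held only in part for the cells that carried most of these UMIs. The 9 macrophage markers used for the gate summed to 15.1 to 130 UMIs per 10000 in the 15 PTIR1 rich cells (median 43.1) and to 7.58 to 35.3 in the 5 mock rich cells (median 13.5), against medians of 48.5 in mock and 52.9 in PTIR1 in the other macrophages. The CSF1 receptor gene Csf1r was seen in every rich cell of both libraries, and so were Cd68, a lysosomal protein of macrophages, and Apoe, an apolipoprotein. The complement genes C1qa, C1qb and C1qc were seen in 4, 3 and 3 of the 15 PTIR1 cells. In the 941 other PTIR1 macrophages they were seen in 330, 268 and 229, so most cells of either kind showed none of each. C1qc, Mrc1 and Adgre1, which encode a complement chain, the mannose receptor and F4/80, were at 0 in all 5 mock cells. Of the 1497 mock macrophages, 421, 1024 and 688 had a UMI of these genes. Lyz2, the lysozyme of most myeloid cells, was at 1 to 7 UMIs in the PTIR1 rich cells. The cells are called rich cells here and are given no cell type name.

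Markers of other cell types were near 0 in them. Monocyte markers had a median of 0.520 UMIs per 10000 in the PTIR1 rich cells against 16.2 in other PTIR1 macrophages. Mast cell and conventional dendritic cell markers had no UMI in any of the 20 rich cells, and fibroblast markers none in the mock cells. The exception was the ungated PTIR1 cell, which held 59 UMIs of all 5 plasmacytoid dendritic cell markers beside 254 Ctsk and 85 Acp5 UMIs. It also held 69 UMIs of 4 monocyte markers, 17 C1qa UMIs and 11 C1qc UMIs, and whether the barcode holds more than 1 cell was not tested. Of 6 markers of osteoclasts (Calcr, Itgb3, Oscar, Nfatc1, Car2 and Mmp9), all 6 were seen over the 15 PTIR1 cells, at a summed 30.5 to 250 UMIs per 10000 (median 118), and 3 over the mock cells, at 5.36 to 122 (median 72.1). Most of that sum was Mmp9, while Calcr, the calcitonin receptor gene that marks mature osteoclasts, had 2 UMIs in 1 PTIR1 cell and none in mock. In the 9 gated PTIR1 rich cells Itgb3 and Car2, at 1 and 4 UMIs, had ratios of only 0.673 and 1.44 to the other macrophages. The sum of the 6 markers had a median of 0 in the other macrophages of both libraries. Still, 518 of 1497 in mock and 442 of 941 in PTIR1 had a UMI of them, reaching 192 and 129 UMIs per 10000.

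The osteoclast programme beyond the 5 genes was read from a list of 50 genes ordered by role. In the whole macrophage gate 45 of them were measured, of which 2 were 2-fold or more higher in PTIR1 and none was lower, beside 2.13% and 0.629% of all genes, so that the count is about 1 gene above the background. Mmp9, a gelatinase, was at 133 CPM in mock and 458 CPM in PTIR1, a ratio of 3.43 (3.27 to 3.60), and without the rich cells at a ratio of 2.18 (2.07 to 2.29). In the same cells the 7 neutrophil markers together had a ratio of 2.22, and 5 of the 6 measured were 2-fold or more higher. Fibroblast markers were at 3.68 and mast cell or basophil markers at 0.354. The part of RNA from other cells in the Mmp9 ratio was not tested. Itgb3, the beta chain of the vitronectin receptor, was at 2.19 and 6.91 CPM, a ratio of 3.16 (2.14 to 4.73), and 3.18 without the rich cells. The median log2 ratio over the 45 genes was 0.0962, beside -0.00666 over all genes. The receptor genes Tnfrsf11a and Csf1r had ratios of 1.02 and 0.952, and Nfatc1 had 1.47.

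Within the PTIR1 library the 9 gated rich cells were set against the 941 other macrophages, which describes cells of 1 library and is no test. Of 2923 genes with enough UMIs, 8.45% were 2-fold or more higher in the rich cells and 27.4% lower. Of the 31 programme genes measured, 11 were higher and 10 lower, and the median log2 ratio was 0.0327 beside -0.291 over all genes measured. A gene was measured only with enough UMIs expected from the other macrophages, so genes rare there could not enter these counts. Among the genes so left out, Src had a ratio of 24.0 and Prdm1 6.94, and Itgb3 had 0.673 and Plcg2 0.216. The counts therefore do not describe the whole list. The 11 higher genes were not spread evenly over the roles. Among acid secretion genes 5 of 6 measured were higher, with a median log2 ratio of 2.38, while of the fusion genes on the list none was higher and Cd47, Adam8 and Cd44 were lower.

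The acid secretion genes that were higher encode pump subunits and a sorting protein. Atp6v1b2 was at 838 CPM in the rich cells and 121 CPM in the others (ratio 6.91), Atp6v1a at 665 and 149 CPM (4.46) and Atp6v1c1 at 328 and 67.8 CPM (4.84). Tcirg1, the a3 subunit found at the osteoclast membrane, was at 440 and 78.8 CPM (5.58). Snx10, a sorting nexin whose loss causes dense bone, was at 407 and 53.9 CPM (7.55). The subunits belong to the same pump as Atp6v0d2, which the rule had used.

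Of the proteases, Mmp9 was at 9699 CPM in the rich cells and 291 CPM in the other PTIR1 macrophages, a ratio of 33.4 (31.6 to 35.3) that stayed at 26.9 to 37.2 with any 1 of the 9 cells left out. Mmp14, a membrane-bound collagenase, was at 735 and 111 CPM (6.63). The cathepsins Ctsb, Ctsd, Ctsl and Ctss were instead 2-fold or more lower, with ratios of 0.0689 for Ctsl and 0.0562 for Ctss, and of 0.0440 and 0.0327 without the 1 cell with the most of each. Receptors followed at smaller ratios, with Tnfrsf11a at 248 and 51.8 CPM (4.79), Itgav at 225 and 45.5 CPM (4.94) and Csf1r at 669 and 317 CPM (2.11).

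Of the transcription factors, Jdp2, an AP-1 family member that acts in osteoclast formation, was at 627 CPM in the rich cells and 45.7 CPM in the others (13.7). Nfatc1, which had too few expected UMIs to be counted as measured, was at 501 and 24.9 CPM (20.2). Irf8, known as a brake on osteoclast formation, was lower by 14.9-fold. Fos, a partner in AP-1, was 2-fold or more lower too. The factors on the list thus did not all move the same way in these cells.

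The mock rich cells showed several of the same ratios against the 1497 mock macrophages, although they were fewer and 4 of them had high mitochondrial shares. Of 1180 genes with enough UMIs, 6.27% were 2-fold or more higher and 35.8% lower. Of the 23 programme genes measured, 3 were higher and 15 lower, with a median log2 ratio of -1.40 beside -0.469 over all genes measured. The 3 were Mmp9, Mmp14 and Atp6v1b2, and the 5 cells were not alike in them. Genes rare in the other mock macrophages were again left out of the count, among them Src at a ratio of 62.3 and Plcg2 at 0.283. The kept cell held 54069 of the 82044 UMIs of the 5 cells, so sums over the 5 lean on it. Mmp9, at 133 CPM in the other mock macrophages, was at 8114 CPM in the 4 removed cells (ratio 60.8) and at 203 CPM in the kept cell (1.52), 21.7 over all 5. Mmp14 had ratios of 9.95 in the 4 cells and 3.18 in the kept cell, and Atp6v1b2 of 5.77 and 4.4.

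The transcription factors Jdp2 and Nfatc1 had too few expected UMIs in the mock rich cells to be counted as measured. The kept cell held 50 of the 56 Jdp2 UMIs, so that the ratio of Jdp2 was 23.3 in it and 5.39 in the 4 removed cells. Nfatc1 was more even, with ratios of 14.7 in the kept cell and 20.5 in the 4 others. Among the remaining genes Tcirg1 had 2.71 and 9.53, Csf1r 0.761 and 2.10, and Atp6v1a 1.89 and 1.83, the kept cell given first. Mmp9 was thus near the level of other macrophages in the kept mock cell, while Nfatc1 was high in both kinds of mock cell. The PTIR1 rich cells with the lowest mitochondrial shares, 1.03 and 1.94%, held 114 and 164 Mmp9 UMIs among 32649 and 20538. Any link of Mmp9 with the mitochondrial share was not tested. The division of the 5 cells was made after their values were seen.

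**Figure D4:**
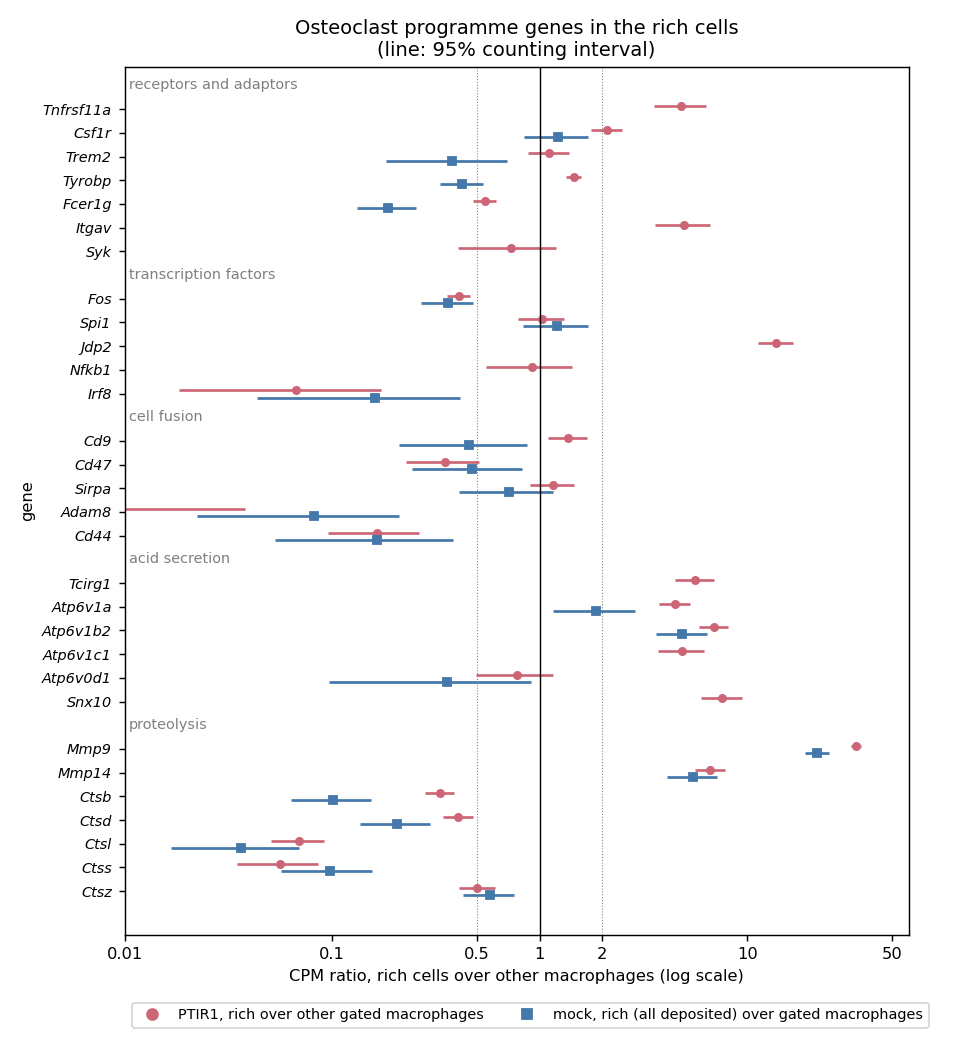
Ratio of CPM in the rich cells over the other macrophages (x axis, log scale) for osteoclast programme genes with enough UMIs (y axis, by role), points with 95% counting intervals, in the PTIR1 library (9 against 941 cells) and the mock library (5 against 1497 cells). Mmp9 is at 33.4 and 21.7 over the pooled cells, Irf8 lies on the low side in both, and the point of Adam8 in PTIR1, with 1 UMI in the rich cells and a ratio of 0.00685, lies left of the axis.

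Genes of several other macrophage states were low in the rich cells of both libraries, where 27.4% (PTIR1) and 35.8% (mock) of all genes measured were 2-fold or more lower. All 6 genes of the Arg1 state were 2-fold or more lower, and Arg1 itself, the arginase of many tumour macrophages, was at 18.7 CPM in the PTIR1 rich cells and 3245 CPM in the other PTIR1 macrophages, a ratio of 0.00577, and 0.00347 to 0.00704 with 1 cell left out. In the mock rich cells Arg1 had no UMI, at least 60.8-fold lower at a floor of 3 UMIs over the 5 cells. Of the 5 C1q state genes, 4 were lower in PTIR1 and 5 in mock. All 5 are markers of the macrophage gate that picked the comparison cells, and no mock rich cell was in that gate, so nothing is read from these counts. The interferon genes measured, 4 in PTIR1 and 3 in mock, were all lower. The lipid-associated state was mixed: of 6 genes measured in PTIR1, Cd63 was 2-fold or more higher and Fabp5, Lgals3 and Spp1 lower, and of 5 measured in mock, Cd63 was higher and 4 were lower. Lyz2 was at 140 CPM in the PTIR1 rich cells and 13396 CPM in the others.

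The genes most like the members were found without the programme list, among genes seen in at least 5% of the PTIR1 macrophages (950 cells of 1 library, which differ in depth). The gene most correlated with Ctsk was Acp5, r = 0.591 on log counts per 10000, followed by Lpl, the lipoprotein lipase, at 0.451, Kbtbd11 at 0.386 and Fnbp1l at 0.364. Chchd10, Nudt22, Nfatc1 and Myo10 came next, at 0.339 to 0.301. For Acp5, Lpl at 0.474 and Fnbp1l at 0.393 again came after Ctsk, and Nfatc1 was at 0.351 and Mmp9 at 0.321. The 3 rarer members are under the 5% limit and so stand outside this ranking: Atp6v0d2 was at 0.633 with Ctsk and 0.573 with Acp5, Ocstamp at 0.377 and 0.424, and Dcstamp at 0.300 and 0.335. In the mock macrophages, which held no rich cell, the same pairs were near 0: Ctsk and Acp5 at 0.0498, Ctsk and Lpl at -0.0140, and Acp5 and Nfatc1 at 0.0556. Without the 9 cells the Ctsk and Acp5 value in PTIR1 was -0.00769 over 941 cells. The rule for rich cells used both genes, so this fall follows in part from it.

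In the 11 PTIR1 macrophages with 3 or more of the 5 genes, the gene with the highest ratio over cells of like depth with none of them was Slc9b2, which encodes a proton-coupled ion exchanger. It gave 202 UMIs where 0.109 was expected. Bdh2 gave 102 against 0.211 and Trip6 54 against 0.601. Mmp9 gave 2072 against 33.1 and Lpl 209 against 3.78. Of the 11 cells all but 2 were the gated rich cells, which held all the UMIs given here. The ranking thus describes the rich cells again and is no separate finding. Slc9b2 was seen in all 9 gated rich cells of PTIR1, at 946 CPM against 0.679 CPM in the other macrophages, and in all 5 rich cells of mock, at 463 CPM against 0.492 CPM.

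Whether the 5 genes shared cells was next asked over the whole macrophage gate, against the number of shared cells that each gene's frequency gives within 10 strata of cell depth. Most macrophages carried none or 1 of the genes: of 1497 mock cells 1115 had none, 322 had 1, 55 had 2, 5 had 3 and none had more. Of 950 PTIR1 cells 676 had none, 215 had 1, 48 had 2, 3 had 3, 1 had 4 and 7 had all 5. Without the rich cells no PTIR1 macrophage had over 3. Summed over the 10 pairs of genes, 70 shared cells were seen in mock where 55.2 were expected, and 133 in PTIR1 where 61.6 were expected. Without the rich cells the PTIR1 sum was 54 where 43.7 were expected, a fall set in part by the rule, which used the same genes.

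Ctsk and Acp5, the most frequent pair, met slightly more often than depth gave in mock and, without the rich cells, in PTIR1, with intervals that reach below 1. The rule for rich cells used these genes. Leaving the rich cells out thus takes away cells with much of both genes and lowers the PTIR1 value by design. In mock they shared 30 cells where 25.9 were expected, an odds ratio of 1.24 (0.799 to 1.92). In PTIR1 they shared 28 cells where 20.9 were expected, an odds ratio of 1.66 (1.0 to 2.76), and without the rich cells 19 where 17.5 were expected, 1.14 (0.644 to 2.01). Counted as detected only at 2 UMIs or more, the odds ratio was 2.01 (0.906 to 4.48) in mock and 7.91 (3.41 to 18.4) in PTIR1. Without cells that carry fibroblast or CT26 tumour marker UMIs it was 1.68 (1.03 to 2.73) in mock and 1.91 (0.947 to 3.86) in PTIR1.

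Ctsk and Atp6v0d2 shared more cells than depth gave in both libraries, with or without the rich cells. In mock macrophages they shared 16 cells where 4.89 were expected, an odds ratio of 5.66 (2.87 to 11.2). In PTIR1 it was 20 where 5.20 were expected, 8.52 (4.30 to 16.9), and without the rich cells 11 where 3.69 were expected, 4.64 (2.11 to 10.2). Acp5 and Atp6v0d2 shared 12 mock cells where 6.63 were expected, 2.34 (1.14 to 4.82). The fusion genes Dcstamp and Ocstamp shared 10 PTIR1 cells where 1.48 were expected, 3 where 0.670 were expected without the rich cells, and none in mock where 0.555 was expected. These odds ratios are over cells of 1 library and describe that library.

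**Figure D5:**
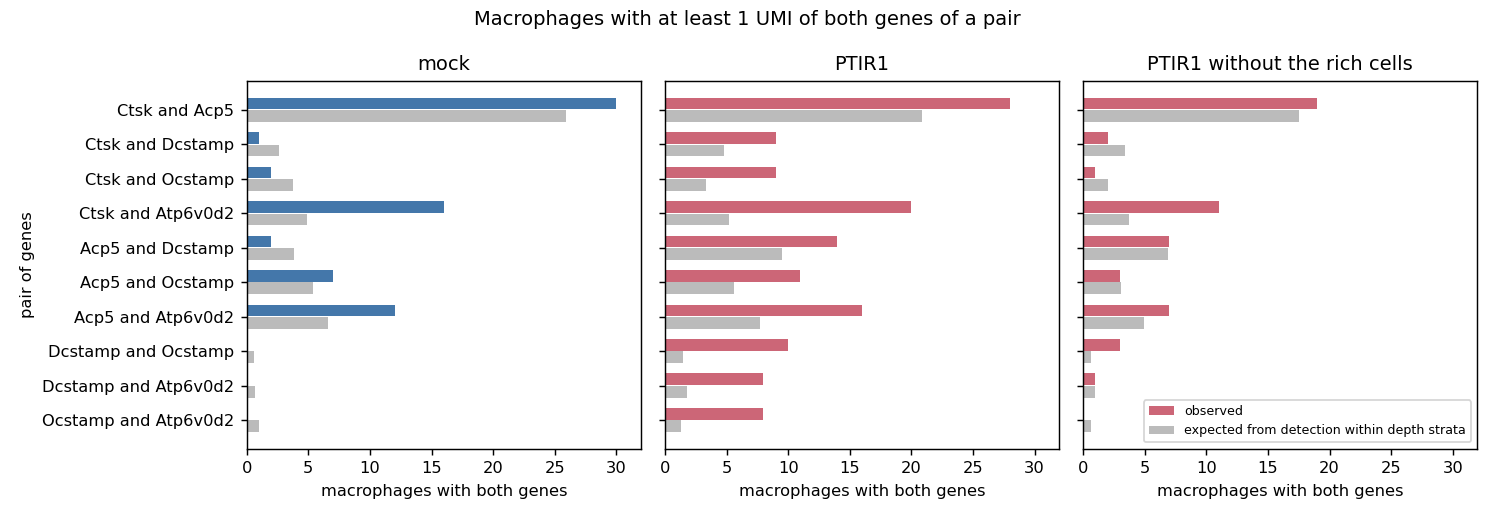
Macrophages (x axis, number of cells) with at least 1 UMI of both genes of a pair (y axis), observed in colour and expected within depth strata in grey, for mock, PTIR1 and PTIR1 without the rich cells. Ctsk with Atp6v0d2 is above the expected number in all 3 panels, at 16, 20 and 11 cells, and Ctsk with Acp5 is at 30, 28 and 19.

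Dcstamp, whose higher level stayed without the rich cells, was split by conventional dendritic cell markers, a split chosen after its values were seen. Without the rich cells, 88 mock macrophages (5.88%) and 89 PTIR1 macrophages (9.46%) carried at least 1 UMI of these 7 markers. In them lay 5 Dcstamp UMIs in mock and 26 in PTIR1 (17.9% and 38.2% of its UMIs), at 2.90 and 15.7 CPM. In the remaining macrophages Dcstamp was at 1.39 and 4.14 CPM, a ratio of 2.98 (1.75 to 5.20). Ocstamp was likewise higher in the cells with a marker UMI, at 4.06 against 2.11 CPM in mock and 6.05 against 2.47 CPM in PTIR1 (7 and 10 UMIs with a marker), with overlapping intervals. Ctsk did not divide this way, at 18.6 CPM with and 18.5 CPM without a marker UMI in mock and 15.7 and 15 CPM in PTIR1. The part of dendritic cell RNA in the Dcstamp difference was tested no further.

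Outside macrophages each gene had its own order of levels over the gates. For Ctsk, the mock monocytes were at 7.55 CPM and the PTIR1 monocytes at 10.1 CPM, a ratio of 1.34 (1.07 to 1.67). Neutrophils, at 22.0 CPM (9.49 to 43.3) in mock and 19.6 CPM (10.1 to 34.2) in PTIR1, overlapped the macrophages without rich cells. Lymphocytes, in which Ctsk is not known as a marker, were at 6.37 and 11.2 CPM in B cells, 3.07 and 7.58 CPM in NK cells and 3.73 and 8.35 CPM in T cells. The Ctsk ratio in NK cells had an interval of 1.22 to 5.40 and those of B and T cells reached below 1. The share of B cells with a Ctsk UMI was 2.87% in mock and 5.82% in PTIR1 (median depth 4291 and 4543 UMIs). With every cell thinned to 1000 UMIs the share was 0.528 and 0.571% in B cells, and 1.99 and 1.92% in macrophages without rich cells. How much of the low Ctsk level in any gate came from free RNA was not tested.

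Fibroblasts, some of which are known to express cathepsin K, had no Ctsk UMI in mock (upper limit 1.22 CPM) and 2.95 CPM (2.23 to 3.84) in PTIR1. That is below the PTIR1 values of monocytes, neutrophils, B, NK and T cells, and above those of conventional dendritic cells (1.42 CPM, 2 UMIs) and plasmacytoid dendritic cells (no UMI). The tumour cell gate held 26 mock and 21 PTIR1 cells and showed 0 and 0.556 CPM. The Ctsk of the macrophage gate was thus not accompanied by high levels in the fibroblasts, which were more numerous in the PTIR1 library.

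Acp5 was highest in B and T cells once the rich cells were set aside. B cells were at 73.6 CPM (61.3 to 87.5) in mock and 77.4 CPM (68.7 to 86.8) in PTIR1, and T cells at 39.9 and 43.6 CPM, above the 18.9 and 20.1 CPM of macrophages. NK cells were at 13.1 and 15.6 CPM, monocytes at 7.32 and 11.2 CPM (ratio 1.54, 1.24 to 1.91) and fibroblasts at 0.330 and 2.15 CPM. The order from B cells to T cells to macrophages was the same in both libraries. In B cells the PTIR1 over mock ratio had an interval of 0.851 to 1.31.

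The rarer genes had sparse counts in the gates outside macrophages. Atp6v0d2 was, within the mock library, highest in mast cells or basophils, at 22.3 CPM (14.6 to 32.7), and at 7.40 CPM (1.53 to 21.6) in those of PTIR1. PTIR1 neutrophils were at 11.4 CPM (4.59 to 23.5) from 7 UMIs, and mock neutrophils had none. In monocytes it was at 1.10 and 1.16 CPM, a ratio of 1.05 (0.544 to 2.0). Dcstamp in conventional dendritic cells was at 3.90 and 4.97 CPM, and in monocytes at 1.75 and 2.26 CPM (ratio 1.29, 0.80 to 2.09). The gates do not show where most of it lay. When kept cells were clustered by expression, a cluster of 129 mock and 124 PTIR1 cells held 83 of 146 mock and 131 of 251 PTIR1 Dcstamp UMIs. Of the cells in that cluster 56.9% met a gate. Ocstamp was at 4.88 and 3.55 CPM in conventional dendritic cells and 3.08 and 4.34 CPM in monocytes (ratio 1.41, 0.993 to 2.0).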

How the data were processed

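The authors deposited UMI counts per gene and cell as 10x matrices for 1 mock and 1 PTIR1 library, which the file headers credit to Cell Ranger 5.0.0. Seurat 3.2.3 and mm10 are named in the submitters' processing notes. Whether intron reads were counted is not given in the sources used here.

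A cell needed 200 genes or more and no more than 10% mitochondrial UMIs. Scrublet in scanpy 1.11.5 scored doublets, and the highest scores were removed at 0.8% per 1000 cells in both libraries. The gates took the mean of a cell's top 3 scaled markers, with a minimum of 0.4, at least 3 markers and a second class at no more than 0.7 of the first. UMIs were summed per gate and library. Levels carry exact Poisson intervals, shares exact binomial intervals and ratios exact conditional intervals, at 95%. Odds ratios were pooled over 10 depth strata (Mantel-Haenszel). A gene was measured with at least 50 UMIs over both libraries, or, for rich against other cells, with at least 10 UMIs expected in the rich cells. The analysis ran in Python 3.11.15 with scipy 1.17.1 and was tested on simulated data.

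The genes, lists and the limits for rich cells were chosen with earlier results of these data known. Named genes were the 5 members, every programme gene past 2-fold and up to 4 per role otherwise, the 8 genes most correlated with a member seen in at least 100 PTIR1 macrophages, and the 8 highest in macrophages with 3 or more members. Of the programme list, genes below the minimum were left out. Single genes that the naming rule covers are in part not reported here. Alternatives covered 13 planned settings and 3 added after seeing the data.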

Additional observations from a re-analysis of the deposited data

Results flagged for a closer look

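Signal for the 5 genes appeared in cells that the comparisons of the macrophage gate did not use. Among the cells removed for over 10% mitochondrial UMIs, 4 of 1505 in mock and 5 of 1439 in PTIR1 were rich in the 5 genes, at 97.9 to 305 UMIs per 10000 in mock and 104 to 426 in PTIR1. In mock these were 4 of its 5 rich cells.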

How the results depend on the processing

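Values are log2 ratios of PTIR1 over mock in the macrophage gate, in the order Ctsk, Acp5, Dcstamp, Ocstamp and Atp6v0d2, with the reported values at 3.82, 3.35, 2.35, 1.52 and 2.36. Settings chosen after seeing the data gave the lowest values. Without the rich cells Ctsk reversed to -0.30, and Acp5, Ocstamp and Atp6v0d2 were at 0.091, 0.37 and 0.24. The rule for rich cells used these genes and took cells from the PTIR1 gate alone, so these falls are in part by design. Over all deposited cells the 5 values were 1.75, 1.40, 0.84, 0.39 and 0.56, and with the macrophage and monocyte gates joined 3.21, 2.80, 1.49, 0.96 and 1.98. Of the planned settings, macrophage and monocyte clusters in place of the gate (2783 mock and 2151 PTIR1 cells) gave 3.22, 2.66, 1.26, 0.94 and 1.60. The 8 rich cells of this setting were in a cluster named monocyte. The macrophage cluster with cells of both libraries held no rich cell, and had 80 Ctsk UMIs in 331 mock and 59 in 244 PTIR1 cells. A stricter gate gave 3.54, 2.83 and 4.09 for Ctsk, Acp5 and Dcstamp, and thinning to 1000 UMIs a cell gave 2.51, 1.95 and 0.91. Weighing each cell the same gave 2.02, 2.14, 0.75 and 1.06 for Ctsk, Acp5, Ocstamp and Atp6v0d2. Without cells that carry fibroblast or CT26 tumour marker UMIs, Acp5 was 3.65 and Dcstamp 1.62, and with up to 20% mitochondrial UMIs Ctsk was 3.60. The odds ratio of Ctsk with Acp5 was 2.01 in mock and 7.91 in PTIR1 at 2 UMIs or more. After thinning without strata it was 6.58 (1.85 to 23.4) and 17.9 (7.01 to 45.8). The 2 programme genes past 2-fold became 4 with 1 UMI in each library as the minimum, 5 at 1.5-fold and 1 with cells weighed the same. Other settings change the rich and the other cells together, and the cause of each move was not tested.

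No paired analysis was possible because each group is 1 library. Depth limits Dcstamp and Ocstamp, with 28 and 42 UMIs in mock macrophages.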

Other observations

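Some genes outside the osteoclast list also differed between the rich cells and the other macrophages of the same library. Lpl, the lipoprotein lipase, was at 978 CPM in the 9 gated PTIR1 rich cells and 12.0 CPM in the other PTIR1 macrophages, and at 366 and 31.7 CPM in mock, the PTIR1 ratio being 81.8. In mock the Lpl ratio was 28.2 in the 4 removed rich cells and 2.91 in the kept one. Cd63, a lysosomal tetraspanin, had a ratio of 4.57 in PTIR1, and in mock 3.91 in the 4 removed cells and 1.17 in the kept one. Slc37a2, a sugar phosphate exchanger, had ratios of 7.31, 11.6 and 1.67 in the same order.

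Over all kept cells without the rich ones, 57.6% of the mock and 47.1% of the PTIR1 Dcstamp UMIs lay in cells with a UMI of a conventional dendritic cell marker, which were 13.1% and 24.8% of the cells. Those cells were deeper, with medians of 10679 and 11893 UMIs against 2119 and 4912 in cells with no such UMI.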
